A study of Mus musculus with 23 samples.

Results

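Gene expression was compared between uterine horns that had received a hydrogel alone (HG) and horns of the SHAM group, in mice used as a model of Asherman syndrome and endometrial atrophy, in which the uterine lining is scarred or thin. The comparison takes in 12 of the 23 RNA sequencing libraries of the study, 6 HG (numbers 12 to 17) and 6 SHAM (numbers 1 to 6), chosen by their titles. All mice were female C57BL/6 animals. In the damage model, 70° ethanol was put into the uterus, the injection into the horns followed 4 days later, and tissue was taken 2 weeks after the injection. HG is the hydrogel without cells, described in the study's title as hybrid and derived from endometrium. The labels do not say what the SHAM horns received or whether they were damaged, and they give no age for the mice. The other libraries came from 5 horns given phosphate buffer (PBS) and 6 given the hydrogel with human endometrial organoids (HG+ORG), and serve here only as levels set beside the comparison. The labels do not tie horns to animals, and 21 mice supplied tissue for all analyses, so some horns can share a mouse. The p-values therefore measure the spread between horns and can be too small.

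The endometrium is an epithelium, with glands, resting on a stroma of fibroblast-like cells fed by a dense bed of small vessels, and it lies directly on the smooth muscle of the uterine wall, the myometrium. The stroma carries steroid receptors and a fine collagen network, and in intrauterine scarring that network thickens while vessels and glands are lost. Hydrogels made from decellularized tissue carry matrix proteins and are used as a scaffold for repair. In this study the lining was pressed out of the horn with forceps, so a sample can hold more or less of the muscle, vessels and outer tissue that lie next to it.

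Levels are given as CPM, on 1 scale for all 23 libraries. These are read counts scaled to the size of each library times a factor (TMM) that adjusts for differences in library composition. CPM values are not divided by gene length, so levels are compared between libraries and not between genes. A log2 fold change is HG over SHAM, with its standard error (SE), from edgeR's quasi-likelihood test on the 12 libraries. A gene is said to have risen, fallen or passed where its Benjamini-Hochberg adjusted p was under 0.05 over all 16216 genes tested. The level of a gene list in a library is the average of log2 CPM over those of its genes that were tested. Its summed level is the sum of CPM over all its genes in the deposited counts, tested or not. In bulk tissue, fewer cells of a type and less RNA per cell cannot be told apart.

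Total counts ran from 7920918 to 14688135 in the SHAM libraries and from 8259351 to 13967674 in the HG libraries. SHAM 5 and SHAM 6 were close to identical: their chi-square per degree of freedom over genes was 2.90, against 17.9 for the next closest pair of the group (SHAM 1 and 2) and 21.7 for the closest HG pair (HG 13 and 16). The difference between SHAM 5 and 6 was above the noise of read sampling, which does not show that they are independent samples. Both were kept, and the edgeR test was repeated with their counts summed into 1 column (n = 5 SHAM). Counts of genes with separate groups were not repeated in that way. SHAM 3 also stood apart, with a cell cycle list level of 1.54 where the other SHAM libraries lay between 6.18 and 6.83. The share of counts from mitochondrially encoded genes was 3.57% ± 1.83 (SD, n = 6) in SHAM and 5.99% ± 2.62 (SD, n = 6) in HG (two-sided exact permutation test, p = 0.0844). With SHAM 5 and 6 summed the same permutation test gave p = 0.13. Keratin 8 and E-cadherin, defining markers of epithelium, were present in all 12 libraries (Krt8 from 960 to 1730 CPM in SHAM and from 414 to 1030 CPM in HG). So was the estrogen receptor gene Esr1 (287 to 476 CPM in SHAM and 298 to 431 CPM in HG).

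Of the 48 gene lists examined, those of smooth muscle, endothelium, stroma and matrix glycoproteins held the most genes that were higher in HG, while 323 of the 386 genes that passed were in no list. The lists and their members were chosen with earlier results of these data known, so their counts are a description and not independent evidence. On the 12 libraries 383 genes were higher in HG, 2.36% of those tested, and 3 were lower, 0.0185%. The log2 fold changes of the 383 ran from 0.51 to 6.08 with a median of 2.44, while the median over all genes tested was 0.00. In 132 of the 383 every HG library lay above every SHAM library, and 2 of the 3 lower genes were separated in the same way. Over all genes tested, complete separation was seen upward for 1.12% and downward for 0.265%. An unadjusted p under 0.05 was reached by 2302 of the 16216 genes in this edgeR fit, 1793 higher and 509 lower. Counts of list members at an unadjusted p under 0.05, given below, are to be set beside that share.

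These calls sat close to the threshold. The smallest adjusted p was 0.0205. With SHAM 5 and 6 summed no gene passed in edgeR, which is 0% of 16502 tested (smallest adjusted p = 0.0656), and 2201 genes had an unadjusted p under 0.05. All 386 genes kept their direction in that fit with an unadjusted p of at most 0.00452. They had been selected by their p from the same reads, so this is no separate support. Leaving out any of SHAM 1, 2, 3, 4 or 6, or of HG 13, 16 or 17, also left 0 genes in edgeR, with 1860 to 2700 at an unadjusted p under 0.05. The count was 55 without SHAM 5, 17 without HG 14, 402 without HG 12 and 893 without HG 15. DESeq2 on the same 12 libraries called 1251 genes higher (6.78%) and 144 lower (0.78%), among them all 386, and it called 1270 with SHAM 5 and 6 summed. An edgeR fit of all 4 groups together called 0 (smallest adjusted p = 0.248), with 1996 at an unadjusted p under 0.05. "Rose" and "fell" below refer to the 12-library test, and no such call held in edgeR once SHAM 5 and 6 were summed.

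Smooth muscle genes gave the widest difference of all the cell type lists with more than 3 tested members. Of 17 tested, 11 rose, 0 fell and all 17 folds were above 0, with a median log2 fold of 3.52 (3.51 with SHAM 5 and 6 summed). The summed level of the list lay between 101 and 233 CPM in SHAM and between 284 and 5070 CPM in HG, with no overlap. The HG horns were far from alike: HG 16, 17 and 13 held 5070, 2540 and 2190 CPM, whereas HG 14, 15 and 12 held 722, 385 and 284 CPM.

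Mylk encodes the kinase that phosphorylates myosin light chain and starts contraction. Its level was 9.35, 17.0 and 20.6 CPM (lowest, median, highest) in SHAM and 34.0, 149 and 387 CPM in HG, so the groups did not overlap. It rose by a log2 fold of 3.52 (SE 0.60, edgeR adjusted p = 0.0323). Cald1, coding for the actin-binding protein caldesmon, went from 13.0, 24.1 and 32.6 CPM to 32.6, 179 and 391 CPM, so the lowest HG horn sat level with the highest SHAM horn (log2 fold 2.96, SE 0.54, adjusted p = 0.0328). Synm, an intermediate filament gene of muscle, rose by 3.05 (SE 0.56, adjusted p = 0.0328). Myl9, Des, Synpo2, Pgm5, Lmod1 and Tpm2 rose as well, with log2 folds from 2.76 to 3.81. The contractile genes most used to mark smooth muscle had wide spreads in HG: Acta2 lay between 8.75 and 34.6 CPM in SHAM and between 23.9 and 1210 CPM in HG (log2 fold 4.34, SE 0.88, adjusted p = 0.0353), and Myh11 between 5.55 and 16.3 CPM and between 10.8 and 670 CPM (4.36, SE 0.91, adjusted p = 0.0353). Cnn1, Actg2 and Tagln had log2 folds of 4.08, 4.53 and 3.44 without passing (adjusted p of 0.0693, 0.0742 and 0.0959).

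Jph2, which anchors the calcium store to the cell membrane in muscle, had the largest fold among named genes whose groups were separate. It measured 0.226, 0.503 and 0.754 CPM in SHAM. In HG it measured 25.8, 42.0 and 26.1 CPM in HG 13, 16 and 17 and 0.879, 2.65 and 2.50 CPM in HG 12, 14 and 15, the same order of horns as the smooth muscle list. The log2 fold was 5.02 (SE 0.93, adjusted p = 0.0328). Of the receptors and channels through which the myometrium is driven, 2 of 10 tested rose. These were Cacna1h, a T-type calcium channel (log2 fold 3.68, SE 0.69, adjusted p = 0.0334), and Ednra, an endothelin receptor (3.23, SE 0.66, adjusted p = 0.0353). Cacna1h had very low levels in SHAM, 0.0988 to 0.512 CPM, against 0.727 to 10.4 CPM in HG. For Ednra the groups overlapped through HG 15, at 1.70 CPM against up to 2.85 CPM in SHAM. The oxytocin receptor gene Oxtr ranged from 0.296 to 25.3 CPM in SHAM and from 0.43 to 59.4 CPM in HG (log2 fold 1.48, adjusted p = 0.644). Gja1, coding for the gap junction protein connexin 43, had a log2 fold of 0.05 (adjusted p = 0.971). Acta1, the actin gene best known from skeletal muscle, rose by 4.44 (SE 0.97, adjusted p = 0.0393), from 0.226 to 1.58 CPM in SHAM to 0.242 to 43.9 CPM in HG.

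Vessel genes were also higher in HG. Of 15 endothelial markers tested 10 rose and 0 fell, with a median log2 fold of 2.98 (3.37 with SHAM 5 and 6 summed), and their summed level was 35.0 to 240 CPM in SHAM and 124 to 1130 CPM in HG. The 10 were Pecam1, Tie1, Tek, Emcn, Erg, Eng, Egfl7, Vwf, Robo4 and Plvap. Pecam1 encodes an adhesion protein at endothelial junctions. It measured 2.41, 6.48 and 17.0 CPM in SHAM and 18.7, 83.3 and 127 CPM in HG, and the groups did not overlap (log2 fold 3.20, SE 0.58, adjusted p = 0.0328). Plvap, which forms the diaphragms of permeable capillaries, went from 1.06, 4.28 and 8.12 CPM to 11.3, 56.3 and 120 CPM (log2 fold 3.75, SE 0.63, adjusted p = 0.0311). Sox18, a transcription factor of vessel and lymphatic development, went from 0.754, 1.14 and 3.99 CPM to 4.61, 28.3 and 60.5 CPM (log2 fold 4.08, SE 0.65, adjusted p = 0.0278). The lowest HG horn was HG 15 for each of these genes.

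The classical junction and growth factor receptor genes were less clear. Cdh5 had a log2 fold of 2.98 and Kdr, the main VEGF receptor, of 2.58, with adjusted p of 0.0784 and 0.0985. Flt1, another VEGF receptor, had a fold of -0.54 (adjusted p = 0.828), with a SHAM range of 8.14 to 209 CPM. Among lymphatic markers 1 of 6 tested rose, Flt4, the VEGFC receptor, from 0.754, 1.38 and 1.83 CPM in SHAM to 4.00, 8.43 and 27.4 CPM in HG (log2 fold 3.26, SE 0.48, adjusted p = 0.022). The other lymphatic genes were high mainly in HG 13 and 16, where the list level was 4.57 and 4.86, against 1.2 in HG 12. Of 9 pericyte and mural cell markers 2 rose, the receptor gene Pdgfrb (log2 fold 3.00, SE 0.70, adjusted p = 0.0469) and the potassium channel gene Kcnj8 (3.23, SE 0.69, adjusted p = 0.0373). Rgs5, also typical of pericytes, had a fold of 3.81 but ranged from 3.72 to 372 CPM in HG (adjusted p = 0.105).

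Angiogenic factors and their receptors gave 3 of 15 that rose. Angpt2, an antagonist ligand of the Tek receptor that loosens vessels, went from 1.43, 2.34 and 2.87 CPM in SHAM to 4.12, 5.69 and 39.6 CPM in HG, with no overlap (log2 fold 2.50, SE 0.59, adjusted p = 0.0469). Tek itself rose by 3.28 (SE 0.70, adjusted p = 0.0372), and Ecscr, an endothelial membrane protein gene, by 3.32 (SE 0.64, adjusted p = 0.0338). Vegfa, the main growth factor for vessels, had a log2 fold of -0.24 (adjusted p = 0.897), with 34.8 to 494 CPM in SHAM and 43.3 to 350 CPM in HG.

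Most stromal markers were higher in HG to a similar extent. Of 18 tested, 7 rose (Pdgfra, Vim, Lum, Bnc2, Igf1, Tcf21 and Aspn) and the median log2 fold was 2.82 (2.97 with SHAM 5 and 6 summed, and 2.07 without HG 14). The fold was above 0 for 16 of the 18 and below 0 for 2, the receptor genes Esr1 and Pgr. Vim, the intermediate filament gene of mesenchymal cells, measured 24.3, 59.7 and 99.2 CPM in SHAM and 69.7, 396 and 701 CPM in HG (log2 fold 2.64, SE 0.50, adjusted p = 0.0334). Its groups overlapped through HG 15 alone, since the next HG horn, HG 12, held 214 CPM. Aspn, a small proteoglycan gene, rose by 3.66 (SE 0.73, adjusted p = 0.0353), and Tcf21, a transcription factor of mesenchyme, by 2.83 (SE 0.58, adjusted p = 0.0353). The homeobox genes that give the uterine stroma its position did not pass: Hoxa10 had a log2 fold of 3.18, with 1.97 to 21.9 CPM in SHAM and 5.09 to 254 CPM in HG (adjusted p = 0.106). The 254 CPM is 1 horn of 6, the median of the HG horns being 34.8 CPM.

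Of the 12 tested steroid receptor and coregulator genes, 1 passed the test, higher in HG. Esr1, the estrogen receptor gene, had medians of 319 CPM in SHAM and 322 CPM in HG (log2 fold -0.02, SE 0.16, adjusted p = 0.976). Pgr, the progesterone receptor gene, had medians of 275 and 254 CPM (log2 fold -0.20, SE 0.52, adjusted p = 0.899, and 0.05 with SHAM 5 and 6 summed).

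Matrix genes rose in part. Of 23 matrix glycoprotein and proteoglycan genes 7 rose (Eln, Fbln2, Bgn, Lum, Postn, Tnxb and Thbs2), with a median log2 fold of 2.32 (2.56 with SHAM 5 and 6 summed). Eln, the elastin gene, measured 2.11, 4.81 and 9.34 CPM in SHAM and 7.68, 37.1 and 78.6 CPM in HG (log2 fold 3.08, SE 0.55, adjusted p = 0.0328). Bgn, which encodes the proteoglycan biglycan, went from 8.83, 12.8 and 24.5 CPM to 21.3, 90.7 and 142 CPM (2.57, SE 0.45, adjusted p = 0.0328). Postn, a matrix gene induced in wound repair, went from 2.49, 6.04 and 17.7 CPM to 30.4, 35.4 and 69.7 CPM, and here the groups did not overlap (2.27, SE 0.45, adjusted p = 0.0351). Mgp, coding for matrix Gla protein, an inhibitor of calcification, went from 10.3, 13.8 and 15.4 CPM to 26.5, 90.5 and 149 CPM, also with no overlap (2.66, SE 0.39, adjusted p = 0.022). Fn1, the fibronectin gene, had a fold of 2.17 that did not pass (adjusted p = 0.129), and laminin genes Lamb1 and Lamc1 had folds of 0.08 and -0.01.

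None of the 17 collagen genes passed, although 15 had a fold above 0 and the median log2 fold was 2.67. DESeq2 called 13 of the 17 higher. In edgeR 14 of them had an unadjusted p under 0.05. Col1a1, the main fibrillar collagen gene, measured 13.7, 74.5 and 171 CPM in SHAM. In HG it measured 967, 608, 1050 and 740 CPM in HG 13, 14, 16 and 17 but 75.1 CPM in HG 12 and 29.1 CPM in HG 15, within the SHAM range (log2 fold 2.86, SE 0.85, adjusted p = 0.106). Col3a1 lay between 19.0 and 254 CPM in SHAM and between 63.9 and 1390 CPM in HG (2.86, SE 0.77, adjusted p = 0.078). Col4a1, a basement membrane collagen, came closest, with a fold of 2.98 (SE 0.73, adjusted p = 0.052). Col12a1 and Col14a1 had folds of -0.43 and -0.19.

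Among genes for collagen folding and crosslinking 2 of 14 rose, both coding for enzymes that crosslink collagen and elastin. Lox went from 3.32, 5.16 and 11.2 CPM to 5.25, 22.3 and 84.3 CPM (log2 fold 2.76, SE 0.64, adjusted p = 0.046), and Loxl1 rose by 2.01 (SE 0.48, adjusted p = 0.0493). Of 18 matrix proteases and inhibitors only Timp2, a metalloprotease inhibitor gene, rose, from 24.2, 27.9 and 44.4 CPM to 40.6, 113 and 177 CPM (1.83, SE 0.30, adjusted p = 0.03). The collagenolytic protease genes Mmp2 and Mmp14 had folds of 2.53 and -0.56 (adjusted p of 0.0979 and 0.201). Mmp7, an epithelial protease gene, ranged from 10.9 to 827 CPM in SHAM and from 1.15 to 547 CPM in HG.

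In the TGF-beta pathway, which drives matrix production in scarring, 4 of 21 genes rose and the median log2 fold was 0.36. Of the ligands, Tgfb2 rose by 2.67 (SE 0.58, adjusted p = 0.0402) and Bmp2, a ligand of the related bone morphogenetic branch needed for decidualization, by 1.91 (SE 0.32, adjusted p = 0.0323). Tgfb1, the ligand most tied to fibrosis, had 3.70 to 19.0 CPM in SHAM and 10.2 to 21.8 CPM in HG (0.62, SE 0.31, adjusted p = 0.401). Of the receptors, the coreceptor gene Tgfbr3 rose by 2.64 (SE 0.44, adjusted p = 0.0311), while Tgfbr1 and Tgfbr2 had folds of -0.59 and 0.14. Ltbp4, which codes for a protein that holds latent TGF-beta in the matrix, was among the 10 named genes with the smallest p: 26.3, 34.7 and 43.8 CPM in SHAM and 60.8, 134 and 193 CPM in HG, with no overlap (1.87, SE 0.26, adjusted p = 0.0205). The target genes Ccn1 and Ccn2 had folds of 1.89 and 2.59 (adjusted p of 0.0732 and 0.174), and the inhibitors Smad6 and Smad7 of -0.27 and -0.16.

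In the insulin-like growth factor axis 3 of 11 tested genes rose, a ligand and 2 binding proteins. Igf1, a growth factor made by uterine stroma under estrogen, measured 8.30, 20.9 and 47.6 CPM in SHAM. In HG it measured 110, 195, 375, 218 and 152 CPM in HG 12, 13, 14, 16 and 17 and 15.5 CPM in HG 15, so that 1 horn produced the overlap (log2 fold 2.90, SE 0.63, adjusted p = 0.0379). Igfbp7 and Igfbp5, whose proteins bind the growth factor outside the cell, rose by 2.29 (SE 0.48, adjusted p = 0.0358) and 1.54 (SE 0.35, adjusted p = 0.0459). The receptor gene Igf1r had a fold of -0.62 (adjusted p = 0.506).

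Wnt pathway genes showed no common direction, with a median log2 fold of 0.08 over 24 tested, but 2 secreted modulators rose. Sfrp4, a decoy for Wnt ligands, measured 0.512, 0.767 and 0.987 CPM in SHAM and 2.26, 10.1 and 18.7 CPM in HG, with no overlap (log2 fold 3.82, SE 0.51, adjusted p = 0.0205). Dkk2, which binds the Wnt coreceptors, went from 0.123, 0.666 and 0.822 CPM to 0.959, 3.86 and 14.3 CPM (3.40, SE 0.74, adjusted p = 0.0402). The target genes Axin2 and Lgr5 had folds of 0.01 and -0.64. Among fibroblast and hepatocyte growth factors and their receptors 0 of 14 passed in edgeR, with 4 at an unadjusted p under 0.05. Fgf2 had the smallest p there, with a fold of 1.56 (SE 0.38, adjusted p = 0.0509).

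Within the lists of immune cells, cytokines, interferon response and antigen presentation, the genes that passed were 3 chemokine and 2 antibody genes. Of 20 cytokine and chemokine genes 3 rose. Cxcl12, which attracts lymphocytes and progenitor cells and is made by stroma and endothelium, went from 2.49, 7.88 and 18.6 CPM to 22.5, 75.0 and 98.0 CPM with no overlap (log2 fold 2.97, SE 0.46, adjusted p = 0.0272). Ccl2 and Ccl7, which attract monocytes, rose by 2.60 (SE 0.61, adjusted p = 0.0474) and 3.42 (SE 0.75, adjusted p = 0.0402). The inflammatory genes Il1b and Tnf had folds of -2.21 and 0.25 (adjusted p of 0.446 and 0.907). Of 16 macrophage and monocyte markers 0 passed in edgeR, 7 had an unadjusted p under 0.05 and DESeq2 called 4. Their median fold was 1.11, and Lyz2 and Adgre1 came closest with folds of 2.07 and 1.75 (adjusted p of 0.068 and 0.0809).

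The antibody genes Ighm and Igkc rose by 4.20 (SE 0.91, adjusted p = 0.0379) and 6.08 (SE 1.28, adjusted p = 0.0358), the latter being the largest fold of any gene that passed. Both rested on few horns. Ighm measured 2.59 to 8.46 CPM in SHAM, and in HG it measured 321 CPM in HG 12 and 178 CPM in HG 13 against 8.97 to 34.4 CPM in the other 4. Igkc measured 159 and 108 CPM in the same 2 horns, 28.9 CPM in HG 16, and between 1.37 and 4.8 CPM in HG 14, 15 and 17. Igkc and Ighm share sequence with related segments, so their counts carry that uncertainty. Of 11 T and NK cell markers, 20 interferon response genes and 15 antigen presentation genes 0 passed in edgeR (7, 0 and 2 at an unadjusted p under 0.05), with median folds of 1.55, -0.26 and 0.01. DESeq2 called 3 of the 11 T and NK markers, besides Cd3g, which the edgeR filter had removed, and 0 genes of the other 2 lists. Neutrophil markers had a median fold of -1.19 with 0 of 8 passing, and the median turned to 0.53 without SHAM 2, the SHAM horn with the highest list level.

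Genes of the epithelium lay slightly lower in HG without passing. All 18 epithelial markers tested had a fold below 0, with a median of -0.52 (-0.59 with SHAM 5 and 6 summed), and 0 passed in edgeR, with 3 at an unadjusted p under 0.05. Esrp1, a splicing factor gene of epithelial cells, came closest: 216, 230 and 263 CPM in SHAM and 127, 164 and 198 CPM in HG, with no overlap (log2 fold -0.50, SE 0.13, adjusted p = 0.0738, and 0.00152 in DESeq2). The summed level of the list was 8770 to 20600 CPM in SHAM and 5180 to 11700 CPM in HG, the lowest being HG 14 and 17. CPM are relative levels and do not measure the absolute amount of RNA. The part of other RNA in this difference was not tested. Gland markers had a median fold of 0.57 with 0 of 4 passing, and the median turned to -0.08 without HG 14, the horn with the highest list level. Foxa2, the transcription factor that glands depend on, had medians of 10.6 and 10.4 CPM (0.75, SE 0.47, adjusted p = 0.518). Estrogen-induced epithelial genes such as Ltf and Lcn2 had folds of -0.98 and -1.18, also without passing (adjusted p of 0.728 and 0.675).

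The 3 genes that fell did so by less than 1 log2 unit, and 2 of them are described here. Pgam1, a glycolytic enzyme gene, measured 38.8, 46.1 and 70.1 CPM in SHAM and 24.5, 29.0 and 37.5 CPM in HG, with no overlap (log2 fold -0.78, SE 0.18, adjusted p = 0.0472). Zdhhc15, a palmitoyltransferase gene, had 28.4, 41.3 and 44.9 CPM and 21.0, 25.8 and 31.3 CPM, which overlapped (-0.59, SE 0.14, adjusted p = 0.0476). Pgam1 was the only 1 of 18 glycolysis and hypoxia genes to pass, while all 18 had a fold below 0 and 8 had an unadjusted p under 0.05 in edgeR. The median fold was -0.72, and it was -0.82 with SHAM 5 and 6 summed and -0.31 without SHAM 3. Pkm and Pgk1, coding for enzymes of the same pathway, had folds of -0.77 and -1.02 (adjusted p of 0.148 and 0.158). The list level of SHAM 3, at 7.80, lay well above the other 5 SHAM libraries (5.91 to 6.41).

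Few proliferation and implantation genes passed. All 26 cell cycle genes tested had a fold below 0 (median -0.46), and 0 passed in edgeR, 0 had an unadjusted p under 0.05 and DESeq2 called 0. Mki67, which marks dividing cells, lay between 1.38 and 492 CPM in SHAM and between 44.7 and 408 CPM in HG (-0.46, SE 0.86, adjusted p = 0.856). Lif, the cytokine that opens the implantation window, ranged from 10.2 to 149 CPM in SHAM and from 5.04 to 96.5 CPM in HG (-0.04, SE 0.94, adjusted p = 0.992). Of 17 implantation regulators 2 rose, Bmp2 and the integrin gene Itgb3 (3.09, SE 0.71, adjusted p = 0.0456), and of 13 progesterone-responsive genes Bmp2 alone rose.

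Several of the genes with the smallest p belonged to none of the 48 lists. Mndal, an interferon-inducible gene of the HIN-200 family, had the smallest p of the named genes: 5.68, 6.87 and 8.70 CPM in SHAM and 14.1, 19.0 and 26.5 CPM in HG (log2 fold 1.54, SE 0.19, adjusted p = 0.0205). Its family holds close copies that the authors' counting could split. Msrb3, coding for a methionine sulfoxide reductase, went from 4.32, 7.47 and 9.95 CPM to 14.0, 38.7 and 62.8 CPM (2.44, SE 0.33, adjusted p = 0.0205). Rrad, coding for a small GTPase that restrains calcium channels, rose by 2.31 (SE 0.34, adjusted p = 0.022). Pianp, Fam219a, Rusc2, Wdr66 and Klhl4 rose with folds from 1.69 to 4.08, all 5 with separate groups.

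Zbtb16, coding for a transcription factor induced by progesterone and glucocorticoids, was the only 1 of 14 steroid-induced stress genes to rise. It measured 0, 0.446 and 1.23 CPM in SHAM and 1.52, 3.35 and 38.8 CPM in HG (log2 fold 4.33, SE 0.96, adjusted p = 0.0423). HG 12 and 14 held 25.0 and 38.8 CPM and the other 4 at most 3.64 CPM. Fkbp5 and Tsc22d3, induced by the same hormones, had folds of 0.38 and 0.54 (adjusted p of 0.771 and 0.623). Among immediate early genes 1 of 16 rose, Nr4a1 (1.81, SE 0.42, adjusted p = 0.0459). Egr1 and Fosb had folds of 1.97 and 1.94 that did not pass.

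Because the smooth muscle level moved with the groups, the test was repeated with that level of each library as a covariate. No gene passed (smallest adjusted p = 0.432), 382 of the 386 kept their direction, and 258 kept it with an unadjusted p under 0.05. The median log2 fold of the smooth muscle list was then 0.11, as the adjustment forces. That of endothelium was 2.84, that of stroma 1.53, and that of collagens 0.84. For single genes, Pecam1 then had a fold of 2.98 (edgeR with all genes tested, adjusted p = 0.432), Cxcl12 of 2.48, Igf1 of 2.50, Col1a1 of 0.22 and Jph2 of 0.23. The smooth muscle level did not overlap between the groups (at most 3.26 in SHAM and at least 3.32 in HG). This fit therefore cannot tell muscle level and group apart. The part of the smooth muscle level in the matrix, stromal and vessel values was not tested.

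Other tissue next to the endometrium varied as well. Fat cell markers summed to 34.9 to 2760 CPM in SHAM and to 14200 CPM in HG 12 but 22.5 to 1430 CPM in the other 5 HG horns. Their median fold of 1.47 turned to -1.53 without HG 12. Red cell genes summed to 9.01 to 161 CPM in SHAM and 77.5 to 602 CPM in HG, and 0 of 5 passed in edgeR, although all 5 had an unadjusted p under 0.05 and passed in DESeq2 (median fold 2.34, and 3.33 without SHAM 2). Their part in the differences was not tested. HG 15 had list levels of 2.86 for endothelium, 3.37 for stroma and 3.81 for collagens, inside the SHAM ranges of 0.54 to 3.30, 2.93 to 4.3 and 2.95 to 5.58. Its smooth muscle level of 4.05 lay above the SHAM range, where HG 12 was the lowest HG horn at 3.32, and its red cell sum of 602 CPM was the highest of the HG horns.

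For Mylk, Pecam1 and Igf1 the PBS and HG+ORG horns spread more widely than the SHAM horns. Mylk measured 132, 1.89, 4.99, 235 and 24.6 CPM in the 5 PBS horns and 6.28, 17.3 and 47.3 CPM in HG+ORG. Pecam1 measured 149, 0.606, 0.724, 114 and 3.52 CPM in PBS and 1.81, 8.58 and 134 CPM in HG+ORG. For both genes 2 PBS horns lay above every SHAM horn by a wide margin, at HG levels, and 2 lay below every SHAM horn. Igf1 measured 51.0, 4.85, 1.61, 95.2 and 15.0 CPM in PBS. In the fit of all 4 groups, whose comparisons share the SHAM or HG libraries, the log2 fold of Mylk was 3.49 for HG, 2.31 for PBS and 0.49 for HG+ORG over SHAM, and 1.19 for HG over PBS. The corresponding values of Pecam1 were 3.17, 2.69, 1.82 and 0.48, and those of Igf1 were 2.87, 0.47, 1.34 and 2.41. Pgam1 had -0.79 for HG and -0.69 for PBS over SHAM. Zbtb16 had 4.33 for HG, 0.75 for PBS and 0.23 for HG+ORG over SHAM and 3.58 for HG over PBS. None of these folds passed in that fit, where the adjusted p of HG over PBS was 0.991 for each of these genes.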

How the data were processed

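The deposited table holds unnormalized whole-number counts of reads by gene for 23 endometrial libraries of poly(A) RNA (stranded kit, single-end reads of 75 bases, per the labels' protocols). Per the submitters' processing notes, the authors used HISAT2 2.2.1 with mouse build GRCm39, featureCounts 2.0.3, Trimmomatic 0.39, FastQC 0.11.9, SAMtools 1.21, DESeq2 1.42.1, MultiQC 1.27.1 and R 4.3.1. Settings, annotation release and use of strand: not given in the sources used here. All 18682 features had at least 10 counts in at least 3 libraries. Symbols were matched for 18341 of them.

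The 6 HG and 6 SHAM libraries, grouped by title, were fitted with edgeR 4.0.16 (TMM factors, filterByExpr, quasi-likelihood test, two-sided, Benjamini-Hochberg 0.05), leaving 16216 genes after 2466 were removed. The test was checked on simulated counts of independent libraries with the same dispersion for all genes. That check does not cover near-identical libraries or horns that share a mouse. Alternatives were SHAM 5 and 6 summed, other scaling, no filter, robust dispersion, DESeq2 1.42.0, limma 3.58.1 voom with quality weights, all 4 groups, a smooth muscle covariate and leaving out each library. The SE is the fold divided by the square root of F. Log2 CPM used a prior count of 2.

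Genes named were the 10 higher and 10 lower with the smallest p, the 5 with the largest fold on each side among those with separate groups (mean of at least 1 CPM, established symbol), the 3 called members of each list with the smallest p or else the best member, and 12 fixed genes; other list members are named with their list. A few genes that the rule names are not reported here. The members and lists were chosen with earlier results of these data known, and lists were described by counts and medians with no set test.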

Additional observations from a re-analysis of the deposited data

Results flagged for a closer look

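In each group of 6 libraries, the highest or lowest value was compared with the gap to its nearest neighbour (Dixon's test), for list levels, named genes and the mitochondrial share, 276 groups in all. It picked out 19 values, given here in log2 CPM, and chance alone picks about 1 in 20 groups. SHAM 3 was low for the cell cycle list (1.54), Mki67 (0.62), Mcm7 (5.37) and Hspe1 (5.31) and high for the glycolysis and hypoxia list (7.80). SHAM 4 was low for the lists of matrix proteases and inhibitors (2.34), TGF-beta signalling (3.52) and implantation regulators (4.76) and for Wt1 (1.58) and Igfbp3 (0.71), and high for cholesterol synthesis (7.28) and nuclear oxidative phosphorylation genes (7.68). SHAM 2 was high for the haemoglobin gene Hbb-bs (6.45). HG 15 was low for Ednra (0.89), Col4a1 (4.35), Cxcl12 (4.50) and Tgfb1 (3.37). HG 14 was low for neutrophil markers (1.5), and HG 12 was high for matrix proteases and inhibitors (5.15).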

How the results depend on the processing

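The count of 386 genes (383 higher, 3 lower) was 299 with relative log expression factors, 440 without the filter and 347 with robust dispersion. It was 254 (252 higher) with total counts only, 1395 (1251 and 144) with DESeq2 and 1614 (1188 and 426) with limma. It was 0 with SHAM 5 and 6 summed (edgeR, 2201 at an unadjusted p under 0.05), with all 4 groups (1996) and with the smooth muscle covariate (1820). Without single libraries it ranged from 0 to 893 (0 to 826 higher, 0 to 67 lower). Chosen after seeing the data, the summed libraries gave 0 with all 4 groups (1971 at an unadjusted p under 0.05), 1270 (1174 and 96) with DESeq2 and 1458 (1104 and 354) with limma. The cause of these differences was not tested. The mitochondrial share differed by 2.21 percentage points with SHAM 5 and 6 summed (exact permutation p = 0.13) and by 1.72 to 3.10 without single libraries. The exact permutation p was 0.0303 without SHAM 2 or HG 14, and between 0.0736 and 0.169 without any other single library.

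No gene that passed changed direction, among those named. Of named genes that did not pass, log2 folds changed sign for Wfdc3 (-1.2 limma, -0.34 limma summed, -0.06 to 2.87 without single libraries), Pck1 (-0.04 limma, -0.38 to 2.30), Foxa2 (-0.10 limma, -0.23 limma summed), Srebf2 (0.04) and Mki67 (0.03, both limma summed). With the covariate they did for Ccr3 (-0.13), Ptgis (-0.09) and Vegfa (0.45, and -0.61 to 0.30 without single libraries). Esr1 was 0.06 with total counts, 0.12 and 0.05 with limma, and reached 0.09 without SHAM 3. Pgr was 0.05 summed, alone or with 4 groups, 0.03 summed in DESeq2, and -0.44 to 0.07 without single libraries. Lif was 0.22 with total counts, 1.51 and 1.29 with limma, 0.02 unfiltered, and -0.35 to 0.70 without single libraries.

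No paired analysis was possible because the library numbers run from 1 to 23 and the groups share none. Depth limits the genes with few reads, and the filter on low counts removed 2466.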

Other observations

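Mast cell protease genes lay outside the edgeR test, because too few libraries reached its minimum count, and were picked out here after their values were seen. Cpa3, the mast cell carboxypeptidase gene, had at most 1 read in each SHAM library and 25, 21, 1, 0, 11 and 13 reads in HG 12 to 17 (DESeq2 adjusted p = 0.0053). Cma1, a chymase gene, had at most 2 reads in each SHAM library and 16, 28, 0, 4, 14 and 16 in HG (DESeq2 log2 fold 4.17, adjusted p = 0.00549). Tpsb2 and Mcpt4, a tryptase and another chymase gene, had DESeq2 folds of 3.74 and 2.67 (adjusted p of 0.0238 and 0.0339). HG 14 and 15 held 4 reads or fewer of each of these 4 genes. In edgeR without the filter the adjusted p was 0.0497 for Cpa3 and 0.0532 for Cma1. Of the 4 tested members of the mast cell and eosinophil list 0 passed, with all 4 folds above 0 (median 0.81, and 0.23 without HG 14). The summed level of that list had a median of 293 CPM in SHAM and 157 CPM in HG, and was highest in HG 14 (1440 CPM). Jchain, which joins secreted antibodies and marks plasma cells, was also left out by the filter. It had at most 6 reads in each SHAM library and 754, 502, 25, 4, 32 and 8 reads in HG 12 to 17 (DESeq2 log2 fold 5.99, adjusted p = 6.07e-06). Myocd, the coactivator of smooth muscle genes, had at most 1 read in each SHAM library and 0, 27, 8, 9, 52 and 75 reads in HG 12 to 17 (DESeq2 adjusted p = 0.000132).

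Several further lists held no gene that passed in edgeR. All 13 mitochondrially encoded genes had a fold above 0 (median 0.81, with 2 at an unadjusted p under 0.05 and 0 in DESeq2), whereas the nuclear genes of oxidative phosphorylation had a median of -0.03 over 18. Heat shock genes had a median of 0.09 over 12, cholesterol synthesis genes of -0.23 over 18 (0.30 without SHAM 4 and -0.64 without HG 13), and enzymes of serine and folate metabolism of -0.15 over 16. Retinoic acid handling genes had a median of 0.07 over 14, and Aldh1a2, which makes retinoic acid, had the smallest p (fold 2.45, adjusted p = 0.0773). Ptgis, which makes prostacyclin, had a fold of 2.38 (adjusted p = 0.0599) in a prostaglandin list with a median of 0.14 over 15. Wt1, a gene of mesothelium and uterine stroma, had a fold of 2.19 (adjusted p = 0.0531), while the 8 mesothelial genes had a median of 0.49 (-0.08 without HG 13 and 1.16 without SHAM 3).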
